A study of Drosophila melanogaster with 2 samples.

Results

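Cell cycle and DNA replication genes were followed across the cell classes of the adult midgut epithelium of Drosophila melanogaster, in wild type Canton S females. The set held 35 genes, chosen by name for their roles but with earlier results of these data known. All 35 were among the 9607 genes of the deposited expression table. They were read as 20 genes of G1 and S phase and 15 genes of mitosis. Dissociated midgut cells had been sequenced in droplets at 1 and at 3 days of adult age, with 1 library per age. Of the 4184 cells, 2711 came from day 1 and 1473 from day 3, and the authors had annotated each with 1 of 10 classes. The cells compared at both ages carried no transgene or mutation in the labels. Food and mating status were not given in the sources used here.

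The midgut lining is renewed by intestinal stem cells, which are the main dividing cells of this epithelium. Their daughters become enteroblasts, which leave division behind and mature into absorptive enterocytes, or follow a separate path to hormone-secreting enteroendocrine cells. A maturing enterocyte goes on copying its DNA without dividing, a variant cycle called the endocycle, so replication genes can be used without mitosis genes. Replication is prepared in G1, when MCM helicase subunits are loaded at origins, and carried out in S phase. The later steps are driven by Cdk1 with the mitotic cyclins, which the phosphatase string (stg) activates.

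The labels of the classes were ISC1 and ISC2 (intestinal stem cells) and EB1, EB2 and EB3 (enteroblasts). Others were EC-like (enterocyte-like by its label), apEC and mEC (enterocytes). AstC+EE and Tk+EE were enteroendocrine cells, named for the peptide hormones allatostatin C and tachykinin. EC-like was high in the progenitor markers esg and N, at 6.67 and 5.18 per 10000 at day 1. The values were 0.496 and 0.339 in apEC and 0.423 and 0.167 in mEC. The classes came from a clustering that could have used the 35 genes themselves, so differences between classes are given as a description, without a test. The libraries held 86114751 UMIs (unique molecular identifiers, each marking 1 captured transcript) at day 1 and 58700717 at day 3, with median depths of 25935 and 32121 UMIs per cell. They shared 1 cell barcode. Marker genes of visceral muscle, hemocytes and the ovary stayed low in every class, with summed levels of at most 0.772 counts per 10000. Every deposited cell carried the authors' singlet call from a doublet caller.

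Depth differed strongly between classes, and this bears on every level given here. The median was 50586 UMIs per cell in EB2 at day 1, 26213 in ISC1 and 10596 in AstC+EE. Levels are therefore given on 2 scales. The first, called the deposited level, is the depth-corrected count of a gene per 10000 such counts in a cell, averaged over all cells of the class. The second is the sum of UMIs per 10000 with a 95% interval that covers counting error only. It was rebuilt in the shallower 2092 cells, those with no more UMIs than the median of 28085.5. There, 3 fits gave the same count for every member, and 3 cells had an E2f1 value that the best fit did not reach. For the deeper cells the deposited values fix a lowest and a highest UMI count, which gives a range over all cells.

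The mitosis genes as a group were highest in ISC1 and AstC+EE. Summed over the 15 genes, ISC1 had 5.21 UMIs per 10000 at day 1 (5.02 to 5.40) and 4.72 at day 3 (4.45 to 4.99). AstC+EE had 5.37 (4.60 to 6.23) and 3.33 (2.71 to 4.05), from 32 and 29 cells. ISC2, also annotated as stem cells, stood well below ISC1, at 1.62 (1.52 to 1.73) and 1.78 (1.64 to 1.92). EB2 had 2.22 at day 1, above ISC2, and 0.876 at day 3, below it, from 24 and 6 cells. EB1, the largest enteroblast class, was near the bottom of the order with 0.483 (0.433 to 0.537) and 0.462 (0.361 to 0.583). The enterocyte classes apEC and mEC lay between 0.210 and 0.515, on at most 10 UMIs each. ISC2 and EC-like were neighbours in the order at day 1, where EC-like had 1.31 (1.21 to 1.42). Over all cells ISC1 ranged from 3.61 to 4.07 at day 1 and from 3.16 to 3.90 at day 3, lower than in the shallower cells but above every other class apart from AstC+EE at day 1, which had 4.38 to 4.72.

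**Figure D1:**
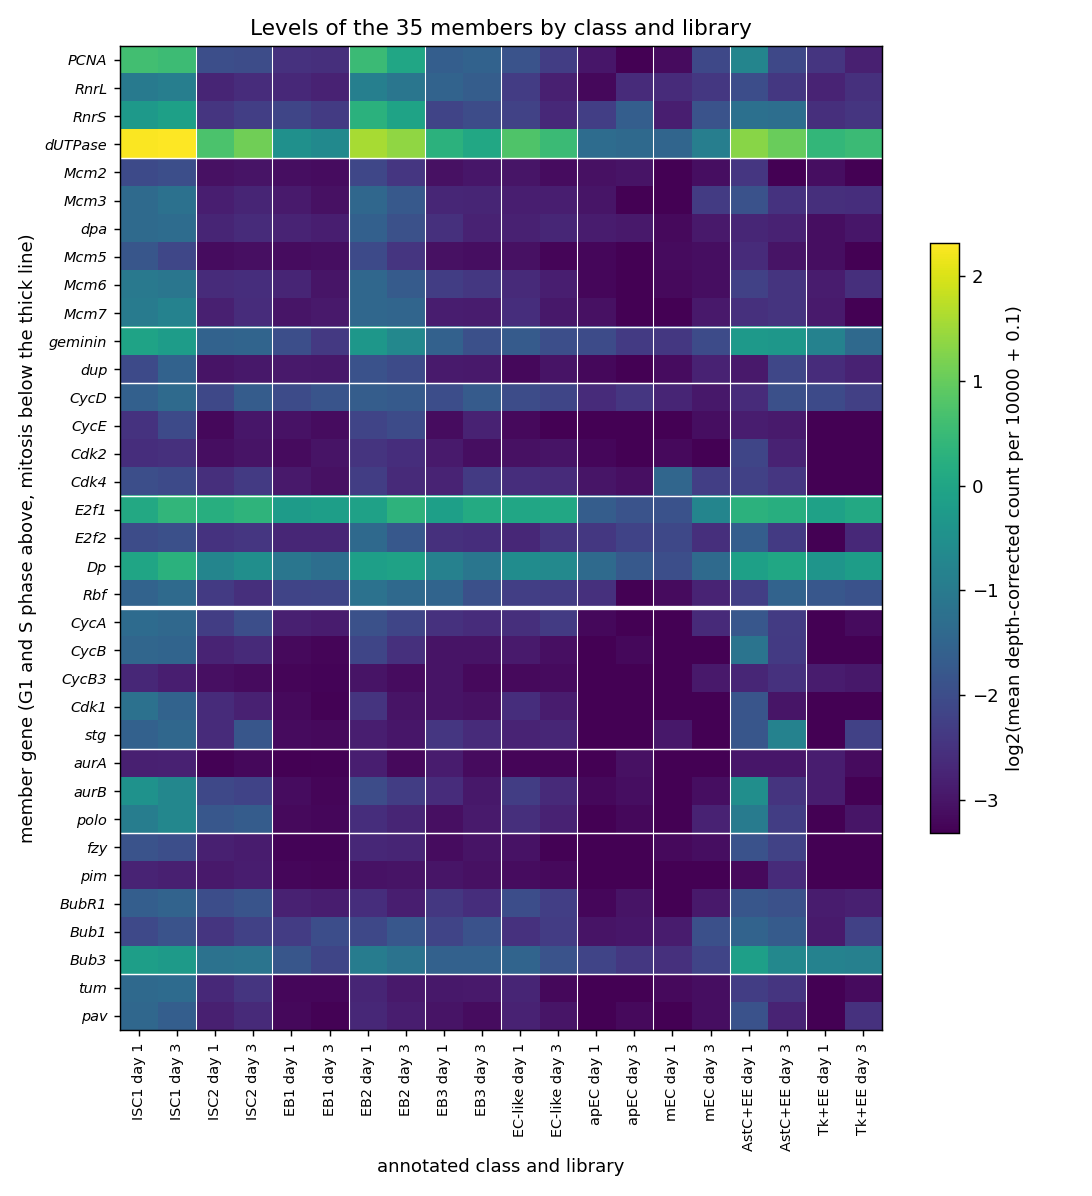
Mean deposited level of each of the 35 genes (rows, grouped by role) in each annotated class at day 1 and day 3 (columns), as log2 of the level per 10000 plus 0.1. Brighter colour is a higher level: PCNA and RnrS are brightest in ISC1 and EB2, and aurB and polo in ISC1 and, at day 1, AstC+EE.

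Among the 6 classes that had 50 or more cells at both ages, all 15 mitosis genes had their highest deposited level in ISC1 at day 1. At day 3 this held for 14, and Bub1, a kinase of the spindle checkpoint, was highest in EB2. The share of all genes that were highest in ISC1 is not given here, so these counts describe the members only. Among all 10 classes, CycB, Bub1 and Bub3 were highest in AstC+EE at day 1. Relative to EB1, the ISC1 level of the mitosis genes was 26.9 times higher in the median at day 1 (1.34 to 43.3) and 26 times at day 3. Bub1 was the flattest gene of the group. It measured 0.136 per 10000 in ISC1, 0.0824 in ISC2, 0.101 in EB1 and 0.132 in EB2 at day 1.

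aurB (chromosome 2L, 10856797 to 10858094, BDGP6) encodes Aurora B, the kinase that corrects the attachment of chromosomes to the spindle. Its level in ISC1 was 0.636 per 10000 at day 1 and 0.514 at day 3, or 0.804 (0.732 to 0.881) and 0.586 (0.496 to 0.688) in UMIs. In EB1 it was 0.0147 and 0.00608, and in ISC2 0.135 and 0.119. ISC1 was thus high at both ages and EB1 close to 0. AstC+EE was near ISC1 at day 1, with 0.595, and below ISC2 at day 3, with 0.0813.

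polo (chromosome 3L, 20309654 to 20313466) encodes the Polo kinase of mitotic entry and spindle assembly. Its levels in ISC1 were 0.423 and 0.516 per 10000, against 0.190 and 0.210 in ISC2 and 0.0105 and 0.00794 in EB1. The ratio between ISC1 and ISC2 was smaller for polo than for aurB at both ages. Bub3 (chromosome 3R, 29674007 to 29675421), a spindle checkpoint protein, was the most abundant and the broadest of the 3. It had 0.791 and 0.739 in ISC1, 0.335 and 0.350 in ISC2, 0.184 and 0.127 in EB1 and 0.416 and 0.343 in EB2.

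The remaining 12 mitosis genes were each under 0.5 per 10000 in every class of at least 50 cells. Mitotic entry was covered by Cdk1, the cyclins CycA, CycB and CycB3, and stg. In ISC1 at day 1 these measured from 0.0545 (CycB3) to 0.331 (Cdk1). Cdk1 was at 0.0102 in EB1 and 0.0795 in EB2, and CycB at 0.00984 and 0.127. Of the anaphase regulators, fzy, which activates the anaphase-promoting complex, had 0.174 in ISC1 and 0.00401 in EB1, while pim, the fly securin, was low throughout, with 0.0484 in ISC1. The cytokinesis genes tum and pav, which form the centralspindlin complex, had 0.278 and 0.268 in ISC1 and 0.00772 and 0.00830 in EB1. aurA, the centrosomal Aurora kinase, was the least abundant gene of the group in ISC1 at day 1 with 0.0419.

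Replication genes had a different second peak. A set of 9 genes of the replication machinery was taken apart after the values had been seen. It held the replication clamp PCNA, the helicase subunits Mcm2, Mcm3, dpa (the fly Mcm4), Mcm5, Mcm6 and Mcm7, and the ribonucleotide reductase subunits RnrL and RnrS, which make deoxyribonucleotides. Their deposited levels summed to 4.26 per 10000 in ISC1 and 4.21 in EB2 at day 1, and to 4.38 and 3.15 at day 3. In ISC2 the sums were 0.515 and 0.597, and in EB1 0.439 and 0.359. On this scale EB2 was about as high as ISC1 at day 1, below it at day 3, and far above the other enteroblast classes, of which EB3 had 0.895 and 0.871.

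In EB2 the rebuilt UMIs rest on few cells, since 88.2% (day 1) and 94.1% (day 3) of EB2 cells were deeper than the median. The 24 EB2 cells up to that depth at day 1 had 3.17 machinery UMIs per 10000 (2.66 to 3.76), and the 6 at day 3 had 6.57 (5.02 to 8.46), 55% of them from 1 cell. The shallower ISC1 cells had 4.77 (4.60 to 4.96) and 5.71 (5.42 to 6.01). EB2 thus lay below ISC1 at day 1 in these cells, where the deposited levels of the 2 classes were about equal. At day 3 its interval held the ISC1 value, while its deposited level was below that of ISC1. Over all EB2 cells the range ran from 3.24 to 4.14 at day 1 and from 2.30 to 3.30 at day 3. For ISC1 it was 3.70 to 4.07 and 3.70 to 4.28. The EB2 and ISC1 ranges overlapped at day 1 and did not at day 3.

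The balance of the groups differed between classes. In ISC1 there were 1.09 mitosis UMIs for each machinery UMI at day 1 (1.03 to 1.15) and 0.826 at day 3 (0.764 to 0.892). ISC2 had 2.88 (2.54 to 3.27) and 2.91 (2.50 to 3.41), and AstC+EE 2.82 (2.10 to 3.83) and 3.85 (2.48 to 6.17). The contrast of ISC1 and ISC2 depends on the machinery set, which was chosen after the values had been seen. Over all 20 G1 and S phase genes, ISC1 had 8333 UMIs beside 2954 of mitosis at day 1, and ISC2 2626 beside 979. At day 3 these were 4411 beside 1199 and 1899 beside 641. By that list the balance of ISC1 and ISC2 was much closer at both ages. With its 4 and 3 deeper cells, AstC+EE ranged from 1.99 to 2.43 at day 1 and from 1.73 to 1.85 at day 3, below the value of the shallower cells at both ages. The shallower EB2 cells, 24 and 6, had 0.701 (0.533 to 0.920) and 0.133 (0.0551 to 0.280). Over all cells EB2 could lie between 0.241 and 0.623 at day 1, under the ISC1 range of 0.887 to 1.10. This EB2 range also lay below the value of its shallower cells. At day 3 the EB2 range of 0.223 to 0.891 overlapped that of ISC1, 0.738 to 1.05. Gene by gene, the EB2 level was 0.931 of the ISC1 level in the median of the machinery genes at day 1 (0.662 to 1.53) and 0.310 in the median of the mitosis genes (0.160 to 0.972). At day 3 these medians were 0.609 and 0.225.

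**Figure D2:**
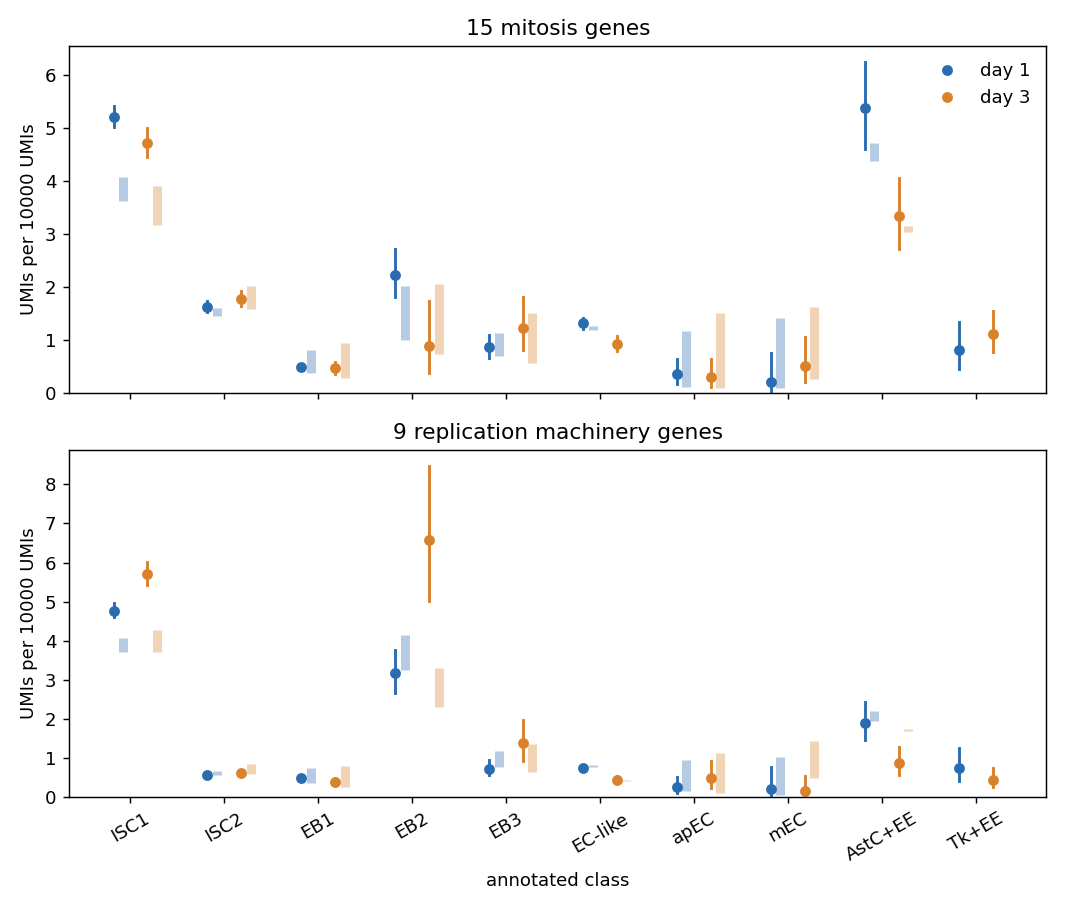
Summed level of the mitosis genes and of the 9 replication machinery genes in each class at day 1 and day 3, in UMIs per 10000. Points with thin bars give the shallower cells with 95% Poisson intervals, and pale bands the range over all cells. ISC1 is high in both sums, EB2 in the machinery sum and AstC+EE in the mitosis sum. The EB2 point of day 3 rests on 6 cells.

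PCNA (chromosome 2R, 20261754 to 20262883) was at 1.44 per 10000 in ISC1 and 1.34 in EB2 at day 1, and at 1.37 and 0.915 at day 3. ISC2 had 0.157 and 0.148 and EB1 0.0735 and 0.0699. RnrS (2R, 11983145 to 11985393) was higher in EB2 than in ISC1 on this scale, with 1.11 against 0.723 at day 1 and 0.867 against 0.829 at day 3. The all-cell UMI ranges of RnrS at day 3, 0.632 to 0.784 in EB2 and 0.771 to 0.857 in ISC1, did not keep that order. The 6 helicase genes were each lower and ran in parallel. In ISC1 they lay between 0.140 (Mcm2) and 0.409 (Mcm7) at day 1, in EB2 between 0.130 and 0.271, and in EB1 between 0.0135 and 0.0498.

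dUTPase, the enzyme that keeps uracil out of DNA, had the highest level of the 35 genes in ISC1, ISC2 and EB2. It measured 4.76 and 4.90 per 10000 in ISC1, 2.89 and 2.53 in EB2, 1.56 and 2.03 in ISC2 and 0.616 and 0.537 in EB1, where E2f1 was higher at both ages. Its 824 exon bases (chromosome 2L, 11011312 to 11012135) lie wholly within an antisense gene, asRNA:CR45778. Whether the authors counted by strand was not given in the sources used here, so reads of the pair cannot be told apart. The same limit holds for 12 other members with some exon bases opposite another gene, most of all Mcm7 with 2003 bases opposite asRNA:CR45871 and Cdk2 with 1010 opposite CG17267.

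The licensing pair behaved unlike each other in abundance. geminin (2R, 6655463 to 6656594), which blocks a second round of origin loading, was at 0.870 and 0.773 per 10000 in ISC1, 0.697 and 0.520 in EB2, and 0.154 and 0.0916 in EB1. dup, the fly Cdt1 that geminin restrains, was at 0.140 and 0.241 in ISC1, 0.170 and 0.144 in EB2 and 0.0311 and 0.0292 in EB1. ISC1 and EB2 were above EB1 for both genes at both ages.

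Among the regulators upstream of S phase, E2f1 and CycD differed least between ISC1 and EB1. E2f1 (3R, 21620304 to 21660871), the activating transcription factor of S phase genes, measured 0.964 in ISC1, 1.07 in ISC2, 0.753 in EB1 and 0.844 in EB2 at day 1. It was lower in the enterocytes, with 0.218 in apEC and 0.166 in mEC. Its UMI levels in ISC1 and ISC2 had overlapping intervals at day 1, 0.856 to 1.02 and 0.941 to 1.10. Dp (2R, 13222433 to 13228202), the partner of E2f1 in DNA binding, was at 0.890 in ISC1, 0.489 in ISC2, 0.367 in EB1 and 0.807 in EB2 at day 1. CycD, the G1 cyclin that partners Cdk4, was at 0.231 in ISC1 and 0.146 in EB1. Cdk4 itself differed more, with 0.157 in ISC1 and 0.0302 in EB1, or 5.19 times at day 1 and 6.95 times at day 3.

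On the deposited scale the repressors and CycE were higher in EB2 than in ISC1 at day 1. The repressive factor E2f2 was at 0.283 in EB2 against 0.147 in ISC1, and Rbf, the fly retinoblastoma protein, at 0.336 against 0.248. CycE, which with Cdk2 starts S phase and drives endocycles, was at 0.122 in EB2, 0.0770 in ISC1 and 0.00861 in ISC2. The 24 shallower EB2 cells held 1 CycE UMI, or 0.0237 per 10000 (0.000599 to 0.132), against 0.0723 in ISC1 (0.0519 to 0.0980). The all-cell ranges of CycE, 0.0797 to 0.135 in EB2 and 0.0718 to 0.0871 in ISC1, overlapped. At day 3 CycE was level between EB2 (0.143) and ISC1 (0.142), E2f2 stayed higher in EB2 (0.193 against 0.159) and Rbf did not (0.279 against 0.286). Among the classes with 50 or more cells at both ages, 7 of the 20 G1 and S phase genes were highest in EB2 at day 1, 12 in ISC1 and E2f1 in ISC2. At day 3, 17 were highest in ISC1 and 3 in EB2. No share over all genes stands beside these counts, which describe the members only. Among all 10 classes at day 1, E2f1 (1.14) and Cdk2 (0.127) were highest in AstC+EE and Cdk4 (0.262) in mEC.

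To compare classes at 1 depth, each of the shallower cells was set to 4000 UMIs and the expected share of cells with at least 2 detected genes was computed. In ISC1, 53.1% of cells had at least 2 of the 15 mitosis genes at day 1 (156 of 294 cells, 47.2 to 58.9) and 47.3% at day 3 (61 of 129, 38.4 to 56.3). In ISC2 the shares were 12.8% (9.56 to 16.8) and 15.3% (10.5 to 21.2). In EB1 they were 1.55% (0.506 to 3.59) and 1.43% (0.0362 to 7.70). EB2 had an expected 4 of 23 cells at day 1, or 17.4% (4.95 to 38.8), and 0 of 5 at day 3 (0 to 52.2). Among enterocytes, the apEC and mEC classes together, the expected number rounded to 0 of 28 cells at day 1, which allows a share of up to 10.7% by 3 counts of the total and 12.3% by the exact interval. At day 3 it rounded to 0 of 27, which allows 11.1% and 12.8% by the same limits. At their own depth, 2 of 29 and 3 of 27 of the shallower enterocytes had at least 2 mitosis genes. The deeper enterocytes were left out, 22 apEC and 21 mEC cells at day 1 and 22 and 11 at day 3. Free RNA in the droplets was not measured.

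For the machinery genes the shares with at least 2 of 9 were 41.5% (35.8 to 47.4) and 47.3% (38.4 to 56.3) in ISC1, 2.79% (1.35 to 5.08) and 4.21% (1.84 to 8.13) in ISC2 and 2.80% (1.29 to 5.24) and 2.86% (0.348 to 9.94) in EB1. The ISC2 interval lay above that of EB1 for mitosis genes at both ages, overlapped the wide one of the enterocytes, and overlapped that of EB1 for the machinery genes. In EB2, 6 of 23 cells were expected to pass for the machinery genes at day 1, or 26.1% (10.2 to 48.4). The overlap of ISC2 and EB1 did not extend to the full G1 and S phase list. With at least 2 genes of that list, the ISC2 shares were 39.9% (34.8 to 45.2) and 46.8% (39.6 to 54.2). The EB1 shares were 26.7% (22 to 31.9) and 24.3% (14.8 to 36), with intervals below those of ISC2 at both ages.

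**Figure D3:**
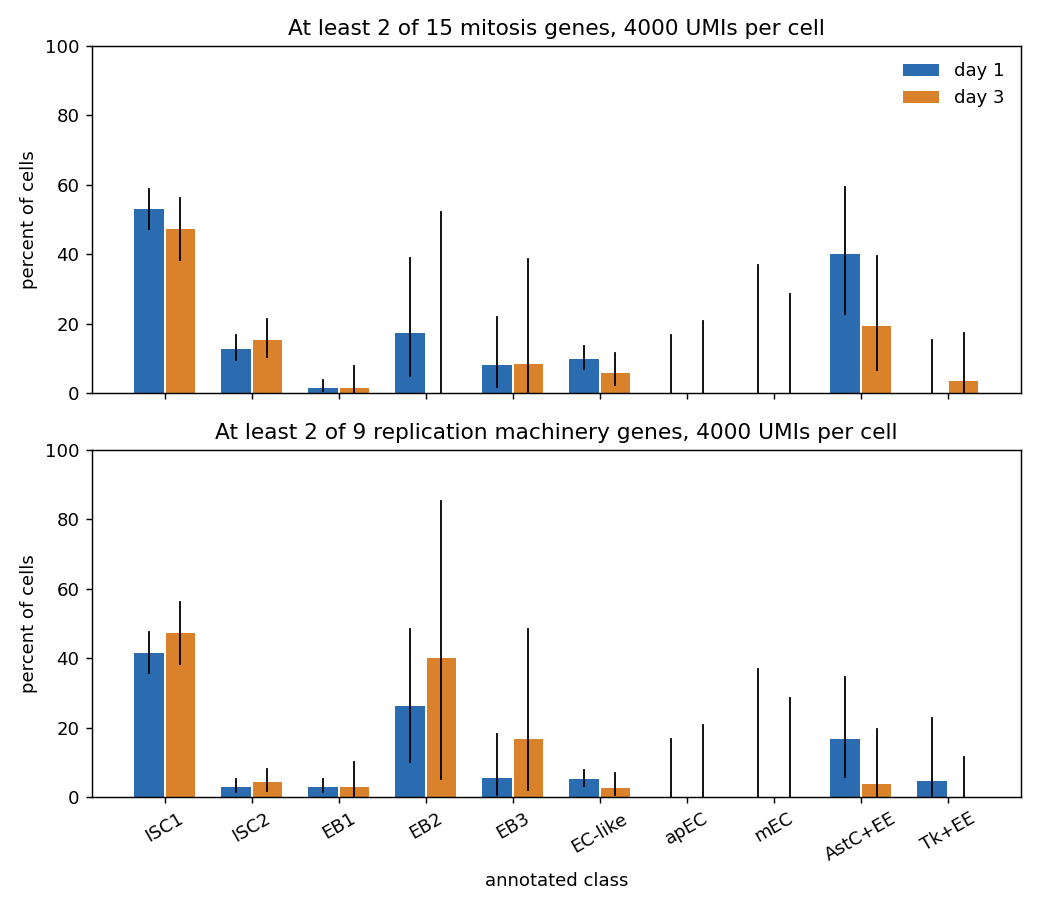
Expected percent of cells with at least 2 mitosis genes (top) and at least 2 replication machinery genes (bottom) at 4000 UMIs per cell, by class and age, with 95% Clopper-Pearson intervals that cover counting error only. The mitosis shares of ISC1, 53.1% and 47.3%, stand above those of the other progenitor classes; EB2 rests on 23 and 5 cells.

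Within ISC1 the groups were found together and apart. At day 1 an expected 26.9% of cells had at least 2 genes of each group, 14.6% of the machinery group alone, 26.2% of the mitosis group alone and 32.3% of neither. At day 3 these shares were 24.8%, 22.5%, 23.3% and 29.5%. At their own depth, 92.5% and 91.5% of these cells had at least 2 mitosis genes. At least 2 machinery genes were found in 81.3% and 88.4%. The shares of 1 group alone or of neither thus depend on the depth, and a group that was not found can be present. Whether cells were in separate phases of the cycle was not tested. In ISC2, 12.3% of cells at day 1 (9.07 to 16.1) and 14.2% at day 3 (9.58 to 20) had the mitosis group alone, against 0.559% and 1.05% with both.

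Further cycle genes outside the 35 were higher in the same progenitor cells. Lists of 47 further mitosis genes and 31 further replication genes shared no gene with the members. In the progenitor classes, cells with at least 3 of the 15 mitosis genes at 4000 UMIs (an expected 101 cells at day 1 and 40 at day 3) carried 6.26 UMIs of the further mitosis genes per cell at day 1 (5.78 to 6.76) and 6.33 at day 3 (5.57 to 7.15). Cells with 0 of the 15 carried 2.13 (2.01 to 2.26) and 2.35 (2.15 to 2.57). For the further replication genes the values were 4.42 (4.02 to 4.85) against 0.981 (0.901 to 1.07) at day 1 and 4.20 (3.59 to 4.89) against 1.07 (0.931 to 1.22) at day 3. At least 1 further mitosis UMI was present in 99% and 97.5% of the first cells and in 83.7% and 87.4% of the others, so that share separated the cells less than the UMIs per cell did.

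By gene, 43 of the 47 further mitosis genes and 30 of the 31 further replication genes were higher per cell in the cells with at least 3 mitosis genes at day 1, and 42 and 30 at day 3. Top2, the topoisomerase that disentangles replicated DNA, had 49.2 UMIs per 100 of these cells and 18.3 per 100 cells with 0 at day 1. ncd, a spindle kinesin, had 31 and 3.33, and mad2, a checkpoint protein, 26.8 and 2.78. RPA2, a subunit of the protein that coats single-stranded DNA, had 64 and 9.37. The exceptions at both ages were tacc and pbl, with 46.1 against 47.8 and 28.2 against 35.4 at day 1. The compared cells differed in class. At day 1 an expected 88 of the 101 cells with at least 3 mitosis genes were ISC1, against 60 of the 566 with 0. Deposited levels of 43 of the 47 and 31 of the 31 genes were also higher in ISC1 than in EB1 at day 1. UMIs were rebuilt for chosen genes only, so no share over all genes stands beside the gene counts by UMIs. None is given for the counts by deposited level either. Within ISC1 alone the contrast in further mitosis UMIs was smaller but kept its direction. It was 6.48 against 3.15 per cell at day 1 and 7 against 3 at day 3.

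Genes that brake the cycle were spread differently. dap, the inhibitor of the CycE and Cdk2 pair, was at 0.439 per 10000 in ISC1, 0.452 in ISC2, 0.403 in EB1 and 0.322 in EB2 at day 1, and was higher in AstC+EE at 0.750. fzr, the activator of the anaphase-promoting complex used in endocycles, was lower in the stem cell classes (0.395 in ISC1 and 0.275 in ISC2) than in EB1 (0.503) and EB2 (0.781). Of the 6 genes of this list, 3 were higher in ISC1 than in EB1 at each age. The replication-dependent histone genes were present as 2 copies of His2B only, at no more than 0.0655 per 10000 in ISC1, EB1 and EB2.

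The AstC+EE class held a subset of cells that carried the mitosis signal. Of its 32 cells up to the median depth at day 1, 10 had at least 5 of the 15 mitosis genes, and of 29 at day 3, 7 did. This limit was set after the values had been seen. It sorts the cells by their mitosis genes, so the higher mitosis level of the chosen cells follows from it. The 10 cells at day 1 had from 8 to 24 mitosis UMIs each, 10.8 per 10000 in all (9.05 to 12.7), and the 7 at day 3 from 6 to 23, or 6.87 (5.45 to 8.55). The other 22 cells had at most 4 mitosis UMIs at day 1 and 5 at day 3, with 1.87 (1.32 to 2.58) and 1.09 (0.664 to 1.68) per 10000.

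AstC, the hormone the class is named for, was found in few of these cells. It had 0 UMIs in the 10 cells at day 1 and was present in 1 of 7 at day 3, with 250 UMIs. Among the deeper cells of the class, 2 at day 1 and 1 at day 3 also had at least 5 mitosis genes, and AstC was present in 1 of the 2, with at least 180 UMIs, and in the 1 at day 3, with at least 238. The other cells up to the median depth had AstC UMIs in 11 of 22 and 16 of 22. The fits of AstC differed by up to 39 UMIs in a cell of the class, but not on whether AstC was present. pros, the transcription factor that marks the enteroendocrine path, was present in 10 of 10 and 7 of 7 of the cells with mitosis genes, at 7.96 UMIs per 10000 (6.49 to 9.66) and 8.16 (6.60 to 9.98). In the other cells of the class pros was present in 21 of 22 at both ages, at 6.88 (5.77 to 8.14) and 16.9 (15 to 18.8). At day 3 pros was thus lower in the cells with mitosis genes. On the other scale, the deposited level of pros in ISC1 was 0.0631 and 0.0119 per 10000. Dl, the Notch ligand of stem cells, was present in 9 of 10 and 7 of 7, and N, the receptor Notch, in 10 of 10 and 7 of 7. In the other cells of the class Dl was present in 8 and 5 of 22 cells and N in 9 and 4 of 22.

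The neural secretion genes IA-2 and 7B2 had 0 UMIs in the 10 cells at day 1, and were present in 13 and 15 of the other 22. At day 3 they were present in 2 and 3 of the 7 cells, against 18 and 22 of 22. The enteroendocrine marker nrv3 was present in 8 of 10 and 6 of 7 of the cells with mitosis genes, and in 20 and 21 of the other 22. The proneural factors sc and ase and their partner in this path, phyl, were looked up after the values had been seen. They were detected in 6, 6 and 8 of the 10 cells at day 1 and in 3, 1 and 4 of the other 22, and at day 3 in 4, 4 and 3 of 7 against 0, 0 and 1 of 22. The cells with mitosis genes were deeper, with medians of 12551 and 13556 UMIs against 7513 and 7334, so these counts of cells were not taken at 1 depth. AstC, IA-2 and 7B2 were nevertheless detected in a smaller share of the cells with mitosis genes at both ages. The authors' doublet neighbour share had a median of 0.201 and 0.197 in the cells with mitosis genes, below 0.317 and 0.362 in the other cells of the class and below the library medians of 0.244 and 0.247. The Tk+EE class had 0.806 mitosis UMIs per 10000 at day 1 (0.451 to 1.33) and 1.11 at day 3 (0.774 to 1.54), most of them of Bub1 and Bub3, without which 0.215 and 0.476 were left.

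**Figure D4:**
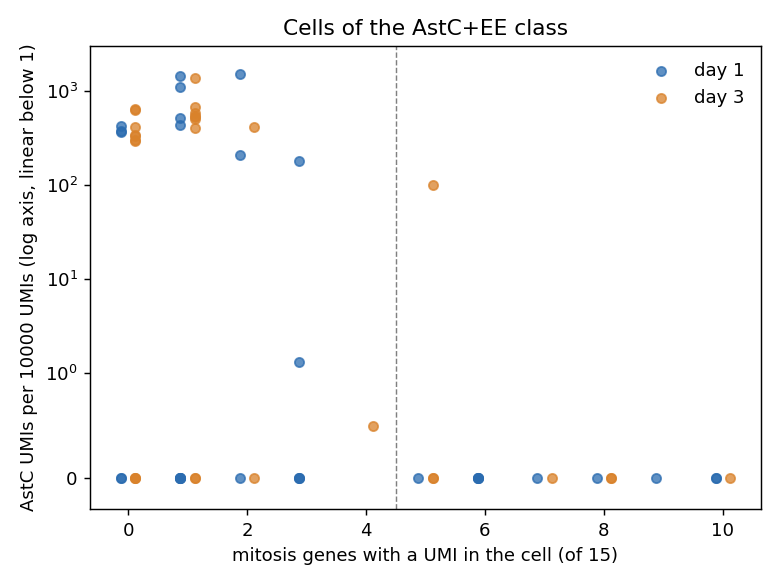
Each point is a cell of the AstC+EE class up to the median depth, with the number of mitosis genes detected (horizontal) against AstC UMIs per 10000 UMIs (vertical, a log axis that is linear below 1), and the dashed line marks 5 genes or more. To its right, 1 cell of day 3 has AstC and the other cells lie at 0.

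The ages were compared as log2 of day 3 over day 1 with 0.1 per 10000 added to each mean, in classes of at least 50 cells per library. AstC+EE and Tk+EE were joined for this as enteroendocrine cells, and apEC and mEC as enterocytes. A gene was measured at a mean of 0.1 per 10000 or more in 1 library and called past 1.5-fold. The added 0.1 shrinks the difference of a gene near that level, which can then exceed 1.5-fold without a call. The shares over all genes include more abundant genes, which it affects less. With 1 library per age there is no replicate check and no test, and age cannot be told apart from library preparation.

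In ISC1, 0 of the 31 measured members (19 of G1 and S phase and 12 of mitosis) passed 1.5-fold in either direction, where 0.783% of all genes did so upward and 0.614% downward. The median log2 difference was 0.10 over the G1 and S phase genes (-0.30 to 0.51) and -0.05 over the mitosis genes (-0.31 to 0.24), beside 0.03 over all genes. The widest differences were those of dup (0.140 to 0.241, log2 0.51) and CycE (0.0770 to 0.142, log2 0.45), both higher at day 3. The plain means of both differed by more than 1.5-fold, and the added 0.1 kept them under the threshold. dup had 0.162 UMIs per 10000 at day 1 (0.131 to 0.199) and 0.275 at day 3 (0.215 to 0.348), with intervals that did not overlap. The E2f1 and Dp pair was also higher at day 3 in ISC1, at log2 0.31 and 0.30, and Cdk1 and Mcm5 were lower, at -0.31 and -0.30.

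In ISC2, stg alone of 14 measured members passed 1.5-fold, upward, where 1.41% of all genes did so upward and 1.41% downward. Its level went from 0.0627 to 0.187 per 10000, or 0.82 on the log2 scale. In UMIs it had 0.0762 (0.0558 to 0.102) from 46 UMIs and 0.227 (0.181 to 0.282) from 82. The day 3 level of stg in ISC2 was near that of ISC1, 0.264 UMIs per 10000 (0.204 to 0.335). Cdk1, the kinase that stg activates, was at 0.0610 and 0.0424 in ISC2 and was not among the measured genes there.

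In enteroendocrine cells, 4 of 10 measured mitosis genes were at least 1.5-fold lower and 1 higher at day 3, where 5.21% of all genes were lower and 9.80% higher. aurB was at 0.371 and 0.0420 per 10000 (log2 -1.73), CycB at 0.210 and 0.0493 (-1.06), polo at 0.244 and 0.0662 (-1.05) and Cdk1 at 0.108 and 0.0125 (-0.89). stg went the other way, from 0.110 to 0.294 (0.91). These genes rest on few UMIs, 30 and 4 for aurB and 9 and 29 for stg. Of the 11 G1 and S phase genes measured, PCNA was the 1 past 1.5-fold, at 0.326 and 0.0874 (-1.19). The median over the mitosis genes was -0.43, beside 0.03 over all genes.

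The lower mitosis level of enteroendocrine cells lay in the AstC+EE class. Its mitosis genes, with 175 and 100 UMIs, gave a log2 difference of -0.69 (-1.06 to -0.33), and the machinery genes -1.14 (-1.86 to -0.45). Tk+EE, with 15 and 35 mitosis UMIs, gave 0.46 (-0.45 to 1.44), and its machinery genes gave -0.76 (-1.94 to 0.42). With its deeper cells, AstC+EE had 4.38 to 4.72 mitosis UMIs per 10000 at day 1 and 3.03 to 3.14 at day 3. Its machinery UMIs were then closer between the ages, at 1.94 to 2.20 and 1.70 to 1.75. Cells with at least 5 mitosis genes made up 10 of 32 AstC+EE cells at day 1 and 7 of 29 at day 3. The part of class composition in the difference was not tested.

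In EB1, EB2, EB3 and EC-like no member passed 1.5-fold on the deposited scale with 0.1 added. Some plain means differed by more, such as RnrL in EC-like (0.101 and 0.0417) and, upward, Bub1 in EB1 (0.101 and 0.153). In EB2, 0 of 24 measured members passed 1.5-fold (background 4.52% higher and 1.46% lower), and the G1 and S phase median was -0.27 with 16 of 19 genes below 0. By rebuilt UMIs of 24 and 6 cells that median was 0.15. The mitosis median of EB2 was -0.23, with 4 of 5 genes below 0, and its summed mitosis UMIs, 94 and 8, gave -1.34 (-2.60 to -0.31). EB1 had 0 of 9 members past the threshold (2.26% and 0.794%), EB3 0 of 12 (2.05% and 2.90%) and EC-like 0 of 13 (1.45% and 2.84%). In EC-like the medians were -0.26 for G1 and S phase and -0.32 for mitosis, beside -0.06 for all genes, and 8 of 9 and 3 of 4 genes were below 0. Summed UMIs of EC-like gave -0.24 (-0.37 to -0.11) and -0.49 (-0.75 to -0.25). In enterocytes 1 of 8 was past the threshold, RnrS, at 0.0799 and 0.203 per 10000 (7.48% of all genes were higher and 11.5% lower), on 3 and 6 UMIs.

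**Figure D5:**
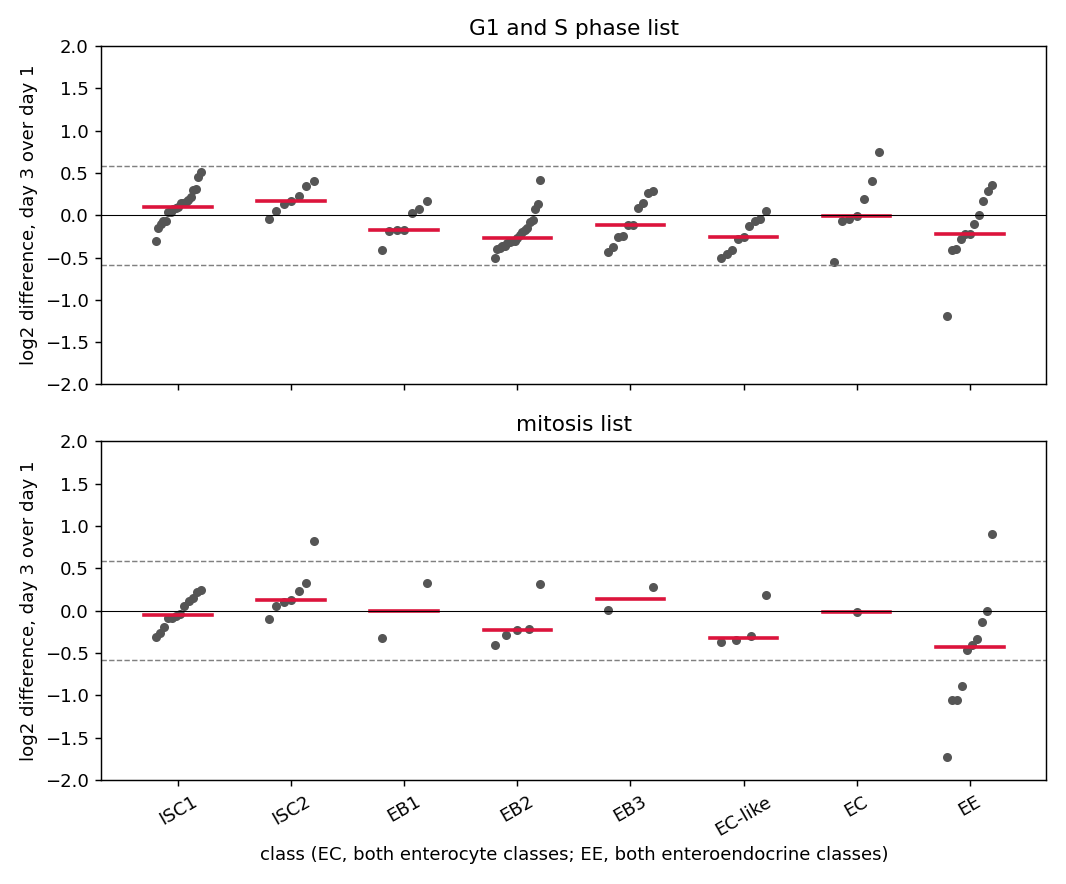
Log2 difference of day 3 over day 1 for each measured member (points) in each class, with G1 and S phase genes above and mitosis genes below. Red lines are the medians over the points and dashed lines mark 1.5-fold. The ISC1 points lie within 0.51 of 0, and those of the enteroendocrine cells spread from -1.73 to 0.91.

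The genes outside the lists whose pattern over the 20 points of class and age was most like the mitosis sum were RpS15Ab (Pearson r 0.96), D1, His2Av, alphaTub84B (0.95 each) and Su(var)205 (0.94), of 3527 compared. For the G1 and S phase sum they were awd, His2Av and icln (0.98 each), alphaTub84B and CG14434 (0.97 each). The points share 2 libraries and the class depths, so no p is given. His2Av, the histone variant of H2A, was at 4.08 per 10000 in ISC1, 0.858 in EB1 and 3.02 in EB2 at day 1, and Su(var)205, the heterochromatin protein HP1a, at 3.61, 1.10 and 2.30. RpS15Ab and alphaTub84B have near-identical copies in the genome, so reads could be split between copies and their levels are uncertain.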

How the data were processed

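Midgut cells of 2 libraries were analysed, 1 per age, grouped by the labels' ages. The deposited expression table held depth-corrected counts on a natural log scale, after 1 had been added, and the authors' cell table held UMI counts per cell, percent columns of mitochondrial and ribosomal counts, fraction columns of doublet neighbour shares and label transfer, and a score for the depth-corrected total, per the file headers. Undoing the log gave whole numbers within 2.9e-11, which summed to that total in all 4184 cells. Cell Ranger 6.0.1 and the build BDGP6 are named in the submitters' processing notes, with roles not given. The aligner, cell filters and counting strand were not given in the sources used here. Every deposited cell carried the authors' singlet call, so cells called doublets are not in the table, and no further caller was run.

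UMI counts were rebuilt by inverting the depth correction with 3 unknowns per gene. For all 35 members, 3 fits gave the same count in each of the 2092 shallower cells, with no more than the median of 28085.5 UMIs. 34 members were reached in every cell, and E2f1 missed 3 cells. Among the marker genes, AstC missed 5 cells and its fits differed in 26, IA-2 missed 22 and differed in 42, and Dl missed 13 and nrv3 10. In AstC+EE cells the fits of these genes never differed on presence. Deeper cells gave a lowest and a highest count. The calculations were tested on simulated data. Detection shares are expectations over all ways of thinning a cell to 4000 UMIs, rounded to whole cells; 10 of the 2092 cells had fewer and were left out. This replaced a single random draw after 2 draws were seen to differ. The 2092 cells above the median depth were not thinned. Intervals are exact Clopper-Pearson and Poisson at 95% and cover counting error only.

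Members that reached a mean of 0.5 per 10000 in a class of 50 or more cells are given in full (9 genes), the others by range and count, with single values for genes singled out after their values were seen. No test across ages was possible with 1 library per age. The members and lists were chosen with earlier results of these data known. Gene positions came from the Ensembl annotation, release 115, of BDGP6. Python 3.11.15, NumPy 2.4.6, pandas 2.3.3, SciPy 1.17.1 and matplotlib 3.10.9 were used. Alternatives changed the thinned depth, the number of genes required, the pseudocount (0.01 or 1), the filter on low values, the level scale and single cells.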

Additional observations from a re-analysis of the deposited data

Results flagged for a closer look

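The median day difference of the G1 and S phase genes had opposite signs in 2 progenitor classes. Their median log2 difference, day 3 over day 1, was -0.27 in EB2 over 19 measured genes and 0.17 in ISC2 over 7. The medians thus cover unlike sets of genes. In EB2 the direction rested on the deposited levels, since rebuilt UMIs of 24 and 6 cells gave 0.15. The mitosis genes had a median of -0.43 in enteroendocrine cells, over 10 measured genes, and 0.13 in ISC2, over 7. The difference between the classes was not tested in either case, because each age had 1 library.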

How the results depend on the processing

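No paired analysis was possible because each age had 1 library and no result came from a test. Of the ISC1 results, the share of cells with at least 2 mitosis genes (53.1% at day 1 and 47.3% at day 3) followed depth and definition. It was 77.4% and 74.6% at 8000 UMIs, 92.5% and 91.5% without thinning, 79.6% and 76.7% for at least 1 gene, 29.9% and 24% for at least 3, 87.6% and 86.1% for any deposited value above 0, 44.2% and 38% without Bub3, and 40.8% and 36% over all depths with the fewest UMIs. The share with at least 2 of the 20 G1 and S phase genes (86.7% and 90.7%) was 97.2% and 98.4%, 100% and 100%, 97.6% and 98.4%, 68.4% and 75.2%, 99.8% and 100%, 71.8% and 78.3% without dUTPase, and 77.9% and 79.5% under those settings in turn. The median day difference of the G1 and S phase genes in ISC1 (0.10) was 0.03 with 1 added, 0.15 with 0.01 added and 0.21 by rebuilt UMIs. The ISC1 mitosis sums of the deposited levels (4.19 and 4.04) became 5.21 and 4.72 by rebuilt UMIs and 3.61 and 3.16 over all depths with the fewest UMIs. The machinery sums (4.26 and 4.38) became 4.77 and 5.71, and 3.70 and 3.70, with 4.07 at day 1 for the most UMIs. The rebuilt-UMI settings leave out the deeper cells, and the cause of the shift was not tested. No list median was past 1.5-fold on the deposited scale with 0.1 added. The mitosis median of EB2, -0.23 on that scale, was -1.16 by rebuilt UMIs of 24 and 6 cells, over 9 genes. Of 105 day medians under alternatives, 10 had another sign than the reported one. By rebuilt UMIs the G1 and S phase median went from -0.17 to 0.05 in EB1, from -0.27 to 0.15 in EB2 and from -0.11 to 0.53 in EB3, and the other changes of sign were in EB3 and the enterocytes. Over all classes, 100 of 550 level values, 69 of 140 mitosis shares and 95 of 140 G1 and S phase shares moved beyond their counting interval. The all-depth settings were added after the data were seen. Depth limits EB2, with 24 and 6 cells up to the median, and the enterocyte and enteroendocrine classes.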
